A study of Homo sapiens with 6 samples.

Results

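The genes described here encode the proteins of the cytosolic ribosome. They were taken from the deposited gene table by symbol: RPLP0, RPLP1, RPLP2, RPSA, and every symbol made of RPL or RPS, a number and at most one of the usual suffixes. This gave 84 genes of 23754 features, 52 of the large (60S) subunit and 32 of the small (40S) subunit. Readthrough transcripts, kinases and pseudogenes are outside the rule, and so are FAU, RACK1 and RPL36AL, relatives with other symbols that are described at the end. The 84 genes lie on 21 chromosomes, with 12 on chromosome 19.

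The cells were IMR-90, an established line of human fetal lung fibroblasts. A lentiviral Tet-pLKO-puro vector carried the sh-2 hairpin against ZNF469, under a promoter that doxycycline switches on, and transduced cells were kept in puromycin. DOX+ cells received doxycycline at 2 µg/mL for 4 days and gave 3 libraries (labelled Sh-ZNF469). DOX– cells, given by the study as the same line without induction and labelled wild-type, gave the other 3 libraries (labelled Control). Every DOX+ library had both the drug and the hairpin, so their effects cannot be told apart, and a single hairpin line was sequenced. The submitters call the 3 libraries of a group technical replicates, so p-values measure the spread between these libraries, which may hold no variation between cultures. Libraries held 34057675 to 36120260 counts. ZNF469 itself had 3981, 3941 and 4409 counts in the DOX– libraries and 2869, 2851 and 2882 in the DOX+ libraries, a log2 fold change of −0.57 (edgeR's quasi-likelihood test, adjusted p = 3.31e-05). On the first principal component, with 23.9% of the variance, DOX+ replicate 2 stood apart at 32.8 against −12.6 to 0.524 for the other libraries. All 10 fibroblast markers were expressed. The summed level of 5 epithelial markers reached at most 0.472 CPM (counts scaled to the size of the library), with 3 of them at 0, and that of 4 endothelial markers at most 0.911 CPM, with 2 at 0. The 4 leukocyte markers summed to 59.0 to 66.7 CPM, nearly all of it from CD68, a lysosomal protein gene, and 2 of them were at 0.

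The small subunit of the ribosome binds the messenger RNA and reads its codons, and the large subunit joins the amino acids and releases the growing chain through its exit tunnel. Apart from the stalk proteins, each ribosomal protein is present in a single copy per ribosome, and cells keep the messages for all of them abundant and closely matched. Many of these messages begin with a 5′ terminal oligopyrimidine (TOP) tract, a C at the cap followed by a run of C and T, through which growth signalling by mTORC1 and the protein LARP1 controls their translation. Translation was not measured here: the values below are message levels.

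The start of the message is shown for 9 members, because it carries the feature that most of them share. RPS16, RPS27 and RPL37A were among those with the lowest fold changes, RPLP0 is among the most abundant, RPL22L1 is a paralog, and RPL19 is the reference gene of the study's RT-qPCR. RPL19 and the last 3, RPL9, RPL7L1 and RPS27L, have no such tract at a listed start. Each line gives 15 bases before and 15 bases from the RefSeq transcription start (GRCh38.p14), 5′ to 3′ on the gene's own strand; capitals mark the start base with the unbroken pyrimidine run that follows where the start base is C, and otherwise the start base alone.
RPS16, chr19:39435935-39435964, minus strand: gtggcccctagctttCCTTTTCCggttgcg
RPS27, chr1:153990747-153990776, plus strand: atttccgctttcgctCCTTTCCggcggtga
RPL37A, chr2:216498829-216498858, plus strand: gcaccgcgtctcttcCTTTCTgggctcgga
RPLP0, chr12:120201097-120201126, minus strand: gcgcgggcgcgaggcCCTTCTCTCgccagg
RPL22L1, chr3:170870181-170870210, minus strand: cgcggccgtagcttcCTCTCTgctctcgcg
RPL19, chr17:39200268-39200297, plus strand: tgggctctccccttcGcagataatgggagg
RPL9, chr4:39458908-39458937, minus strand: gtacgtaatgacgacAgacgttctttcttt
RPL7L1, chr6:42879601-42879630, plus strand: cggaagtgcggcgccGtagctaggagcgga
RPS27L, chr15:63157463-63157492, minus strand: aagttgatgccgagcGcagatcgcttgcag

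A RefSeq window was matched by symbol for 67 of the 84 genes, 11 of which list several starts. Of these 67, 47 (70.1%) have a listed start at a C followed by at least 4 pyrimidines, against 5.14% of 27305 human genes in the same table. Without the paralogs it was 46 of 62 (74.2%). The median run among the 47 was 8 bases and the longest 19. In the same windows, from 250 bases before to 50 after the start and on both strands, CCGGAAG, a core of ETS factor sites, was found in 35.8% of the members and 12.2% of all genes, AAGATGGC, a core of YY1 sites, in 10.4% and 3.52%, the GC box GGGCGG in 58.2% and 48.3%, and TATAAA in 10.4% and 14%. A match is a run of letters and says nothing of use in these cells, and a listed start one base away from the true one would change the call.

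In DOX– cells the ribosomal protein genes were expressed at high levels. Levels between genes are compared here by the authors' FPKM, fragment counts scaled to transcript length and library depth. RPS2, which lines the entry of the mRNA channel, was highest, at 1392 ± 27.4 FPKM (SD, n = 3), followed by RPLP0, the base of the stalk, at 1257 ± 72.4. RPL7A, at 1039 ± 1.23, and RPS18, at 1033 ± 54.1, differed by less than their spread. RPL3, next to the peptidyl transferase centre, followed at 967 ± 12.1 FPKM. Among small subunit genes alone, RPSA, the ribosomal protein also known as the laminin receptor, came after RPS2 and RPS18, at 845 ± 8.16. The median was 357 FPKM over 50 large subunit genes and 492 FPKM over 32 small subunit genes, and 72 of these 82 exceeded 100 FPKM. At the lower end of the small subunit stood RPS27L at 28.7 ± 3.34, RPS28 at 64.7 ± 2.91 and RPS23 at 94.3 ± 6.67 FPKM. FPKM divides by the length the authors used, which for RPS28, RPS23 and some others follows a long annotated transcript: the length implied by their counts and FPKM was 1456 bases for RPS28 and 3506 for RPS23, against a median of 957 for the members.

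**Figure D1:**
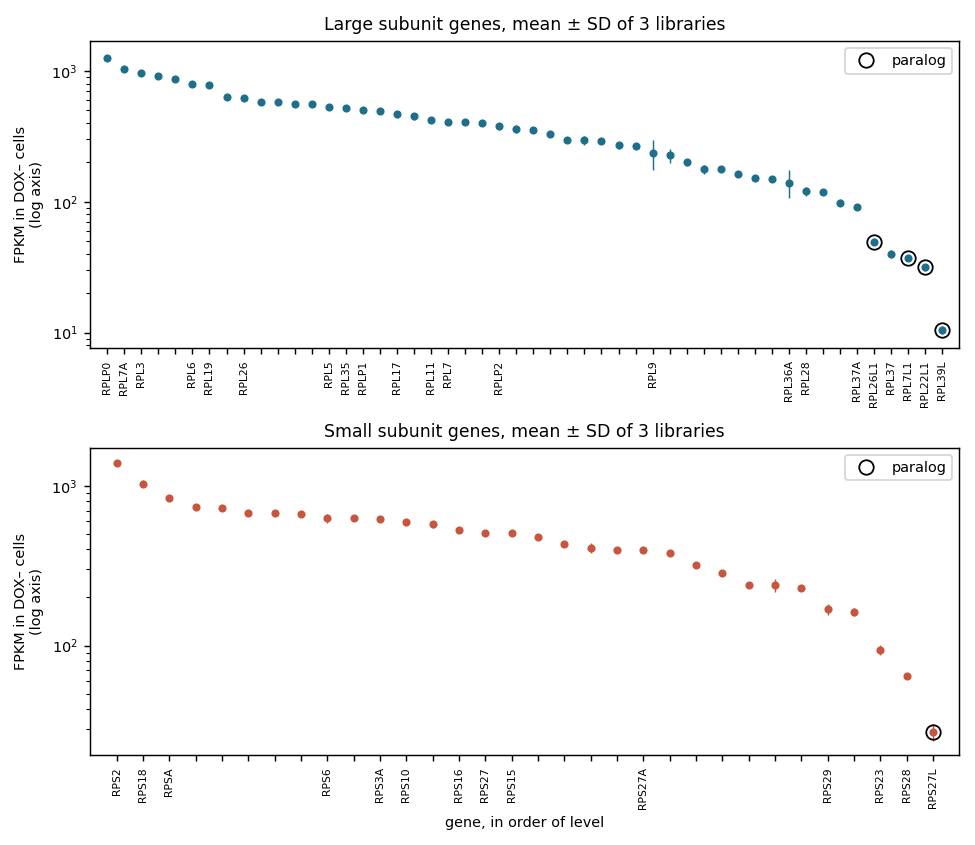
Level of each ribosomal protein gene in DOX– cells in FPKM (log axis), as mean ± SD of 3 libraries, genes in order of level within each subunit, with paralogs circled and the genes named in the text labelled. RPS2 at 1392 and RPLP0 at 1257 FPKM head the subunits, the circled paralogs lie at the lower end, and RPL3L and RPL10L, with 0 counts, cannot be drawn on a log axis.

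The paralogs, which resemble a canonical ribosomal protein and are often tissue-restricted, stood at the lower end of each subunit by FPKM. RPL37, which is no paralog, lay among them at 39.9 ± 3.08 FPKM, with an implied length of 6640 bases. RPL3L, a gene of heart and skeletal muscle, and RPL10L, a gene of the testis, had 0 counts in all 6 libraries; with a floor of 3 counts per library their level could not be told from 0. They are the 2 members that failed the filter on low counts. RPL39L had 10.5 ± 0.685 FPKM in DOX– cells, RPL22L1 31.6 ± 2.03, RPL7L1 37.3 ± 1.19 and RPL26L1 49.7 ± 3.14. As a share of the FPKM of its canonical partner, RPL22L1 reached 26.9% ± 1.11 (SD, n = 3) in DOX– and 27.1% ± 2.63 in DOX+ cells. RPL7L1 stood at 9.12% ± 0.314 and 9.14% ± 0.445 of RPL7, RPL26L1 at 8.07% ± 0.492 and 7.62% ± 0.403 of RPL26, RPL39L at 3.55% ± 0.429 and 3.54% ± 0.0348 of RPL39, and RPS27L, a target of p53, at 5.67% ± 0.858 and 6.22% ± 0.417 of RPS27. In each of these 5 pairs the ranges of DOX– and DOX+ libraries overlapped. The shares depend on the lengths behind FPKM. The implied length was 4521 bases for RPS27L and 396 for RPS27, and 4693 for RPL7L1 and 1220 for RPL7. In CPM, without division by length, RPS27L had 130 ± 0.967 and RPS27 204 ± 9.2 in DOX– cells. RPL7L1 had 177 ± 3.69 CPM and RPL7 506 ± 9.51. RPL36AL, a relative outside the symbol rule, had 51.3% to 76.8% of the FPKM of RPL36A in DOX– libraries. In DOX+ libraries it had 77.5% to 86.2%, without overlap. This gap was not seen in CPM. RPL36A had 82.3, 90.9 and 98.7 CPM in the DOX– and 84.5, 77.5 and 86.8 in the DOX+ libraries. RPL36AL had 72.1, 75.8 and 79.8 CPM against 77.1, 70.5 and 69.0. Each gene, and the share by CPM, overlapped between groups. The DOX– FPKM of RPL36A varied widely (140 ± 33.8). RPL36A shares reads with a readthrough transcript described below.

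Compared with DOX– cells, the ribosomal protein messages in DOX+ cells had fold changes that were small and mostly negative. Of 82 genes tested, 76 had a log2 fold change under 0, where 50.7% of all 13991 features tested did. The median was −0.064, or 95.7% of the DOX– level, against −0.0019 over all features, and the 82 genes ranged from −0.20 to 0.048. One gene passed the test, RPS16, which fell (1 of 82, or 1.22%; background 0.715% of all features lower), and 0 of 82 were called higher (background 0.4%), both with edgeR's quasi-likelihood test at an FDR under 0.05. A share of 1 in 82 is near the background. No member reached the study's added criterion of an absolute log2 fold change over 1 (background 0.0286% lower and 0.0143% higher). At an unadjusted p under 0.05, 28 of 82 were lower (background 7.69%) and 0 higher (background 7.31%). DESeq2 called 16 of the 81 members that have an adjusted p lower, 9 of the large and 7 of the small subunit (background 3.54% of 6894 features), and 0 higher (background 3.52%). Reads are shares of a library made from whole cultures, so fewer cells of a type and less RNA per cell cannot be told apart.

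The level of the whole group varied between libraries of a condition about as much as between conditions. The 82 genes took 3.70%, 3.84% and 3.79% of all counts in DOX– replicates 1, 2 and 3, and 3.71%, 3.59% and 3.73% in DOX+ replicates 1, 2 and 3. DOX– replicate 1 lay below DOX+ replicates 1 and 3, so the groups overlapped. The half-width of the 95% Wilson interval, which covers counting error only, was 0.0062 to 0.0063 percentage points, well below the spread between libraries. The means were 3.77% ± 0.0718 and 3.67% ± 0.0747 (SD, n = 3 each), a difference of −0.0997 percentage points, and −0.0569 without DOX+ replicate 2. Relative to the DOX– mean of each gene, the median member was at −0.041, 0.026 and 0.014 on the log2 scale in the DOX– libraries and at −0.045, −0.11 and −0.045 in the DOX+ libraries, while the median of all features was within 0.0032 of 0 in each library. Members below their DOX– mean numbered 73, 18 and 28 of 82 in the DOX– libraries and 72, 76 and 63 in the DOX+ libraries. DOX– replicate 1 resembled DOX+ replicates 1 and 3 in this. Without DOX+ replicate 2, the library that stood apart, the median log2 fold change was −0.041, with 72 genes lower and 10 higher, and 0 members were called. Without DOX– replicate 2 the median was −0.048, with 68 genes lower and 14 higher, and again 0 members were called. Without DOX– replicate 1 the median was −0.086.

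**Figure D2:**
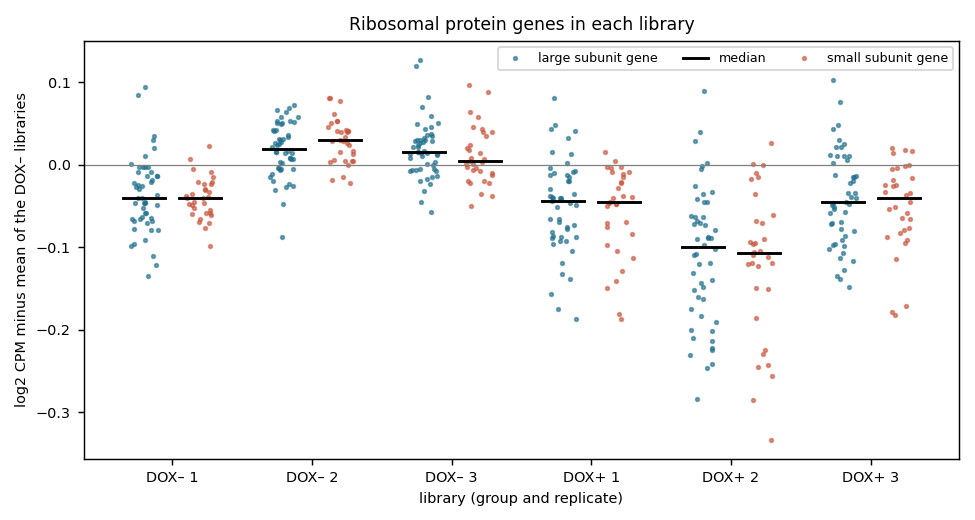
Log2 CPM of each ribosomal protein gene minus its mean over the DOX– libraries, in each of the 6 libraries, with large subunit genes (left) and small subunit genes (right) and black bars for the medians. The medians over all members run from 0.026 in DOX– replicate 2 to −0.11 in DOX+ replicate 2, and DOX– replicate 1, at −0.041, lies beside DOX+ replicates 1 and 3.

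Large and small subunit genes had nearly equal fold changes. The 50 large subunit genes had a median log2 fold change of −0.062, with 45 lower and 5 higher, and the 32 small subunit genes −0.065, with 31 lower and 1 higher. The counts on large subunit genes exceeded those on small subunit genes by 0.65, 0.63 and 0.65 on the log2 scale in the DOX– libraries and by 0.65, 0.64 and 0.65 in the DOX+ libraries. The ranges overlapped, and the difference between the group means was −0.00022, against SDs of 0.0107 and 0.00279 (n = 3 each). Averaged per gene rather than summed, the difference was 0.0096. The groups of libraries did not overlap for 15 of 50 large and 11 of 32 small subunit genes that were lower, together 31.7% of members (background 10.6%), and for 1 member that was higher, RPL9 (background 9.73%).

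**Figure D3:**
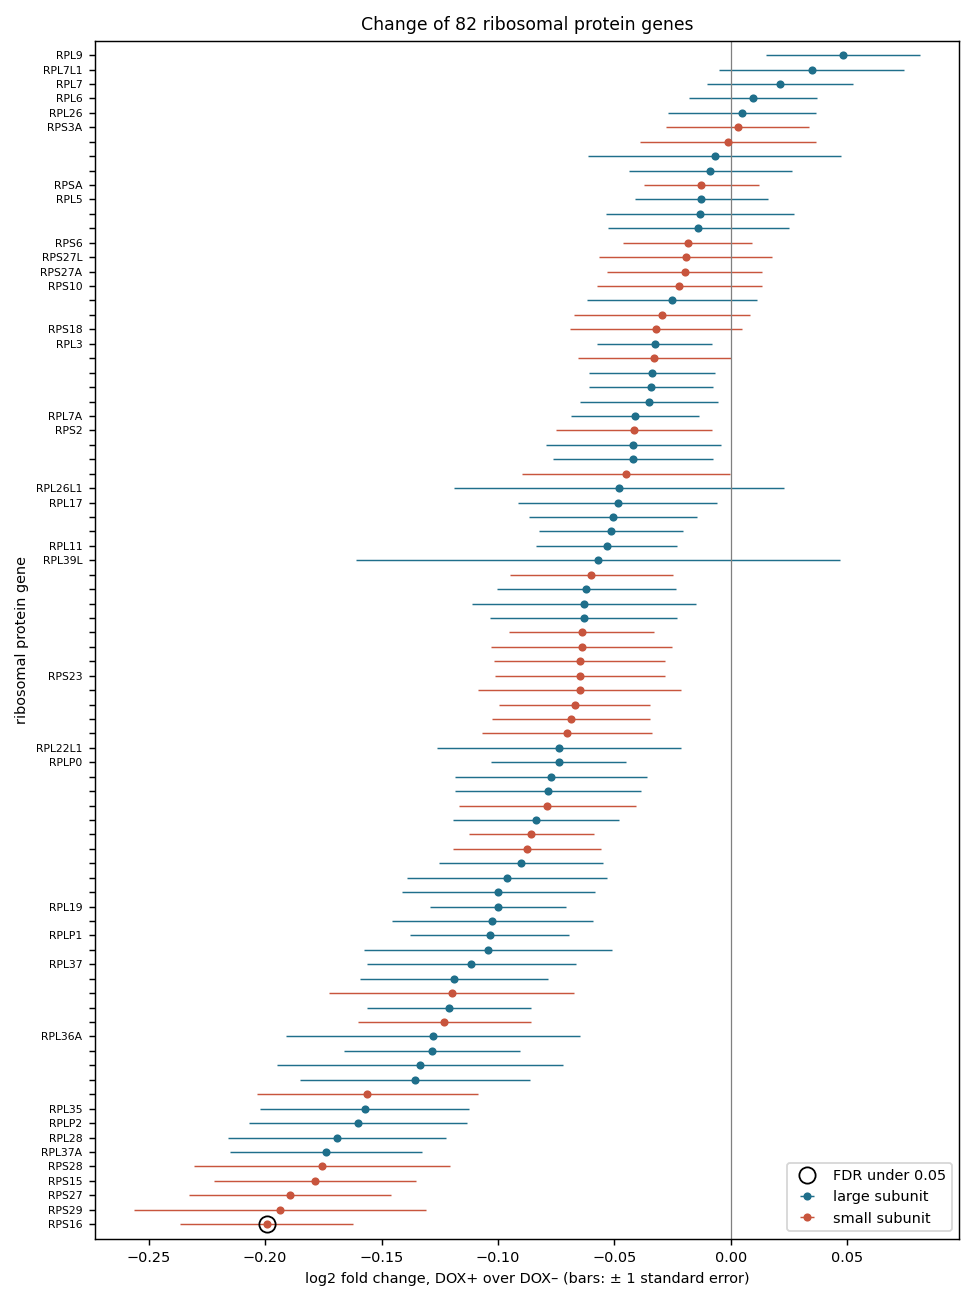
Log2 fold change of the 82 tested ribosomal protein genes, DOX+ over DOX–, with bars of 1 standard error, ordered by value and coloured by subunit, with the genes named in the text labelled; a circle marks an FDR under 0.05. Large subunit genes run from −0.17 to 0.048 and small subunit genes from −0.20 to 0.0030. In all, 76 genes lie below 0, and the circle is on RPS16.

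Among small subunit genes the lowest fold changes were those of RPS16, RPS29, RPS27, RPS15 and RPS28. RPS16 (chr19:39433137-39435949, GRCh38), whose tail reaches the peptidyl site of the subunit, had 318, 334 and 339.5 CPM in the DOX– libraries and 291, 279 and 293.5 in the DOX+ libraries. All DOX+ libraries lay below all DOX– libraries, and the gene fell to 87.1% of the DOX– level (log2 fold change −0.20, SE 0.0371, edgeR adjusted p = 0.0202; exact two-sided permutation p = 0.1, the smallest that 3 against 3 libraries allow). The adjusted p was 0.0320 to 0.110 when each library was left out in turn, and RPS16 was no longer called after removal of the second or the third DOX– library, or of the first or the second DOX+ library.

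RPS27 (chr1:153990762-153992155), a zinc-binding protein, had 194, 206 and 212 CPM in the DOX– libraries and 185, 172 and 179.9 in the DOX+ libraries. Its log2 fold change was −0.19 (SE 0.0432, edgeR adjusted p = 0.0596), and it did not overlap between groups. RPS29 (chr14:49570984-49599164), which binds zinc in the head of the subunit, had 60.8, 67.1 and 62.5 CPM against 60.2, 50.3 and 56.0, and its value was −0.19 (SE 0.0628, edgeR adjusted p = 0.170). DOX– replicate 1 and DOX+ replicate 1 almost met, and DOX+ replicate 2 was lowest. RPS15 (chr19:1438358-1440495), also of the head, had 296, 307 and 315.5 CPM against 269, 256 and 287 and a value of −0.18 (SE 0.0434, edgeR adjusted p = 0.0739). RPS28 (chr19:8321158-8323340), a small protein near the mRNA exit, had 91.0, 93.8 and 101 CPM against 87.2, 78.2 and 88.0 (−0.18, SE 0.0550, edgeR adjusted p = 0.160). In each of these 4 genes DOX+ replicate 2 was the lowest library, and none passed edgeR's test in the reported setting. DESeq2 called RPS27, RPS15 and RPS28 (adjusted p = 0.000651, 0.0011 and 0.0479) but not RPS29 (adjusted p = 0.0789). None of the 4 passed with the length trend removed.

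Among other small subunit genes, RPS2 and RPS18 had values of −0.042 and −0.032. RPSA, with 1014, 1021 and 1019 CPM in DOX– and 1016, 993.5 and 1018 CPM in DOX+ libraries, had −0.013 (SE 0.0246, edgeR adjusted p = 0.857). The 2 groups overlapped for RPSA, RPS2 and RPS18. RPS6, the substrate of the S6 kinases, had −0.019 and RPS27A, made as a fusion with ubiquitin, −0.020, each with overlapping groups. RPS23, a protein of the decoding site, had −0.065 and RPS27L −0.019.

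Among large subunit genes the lowest were RPL37A, RPL28, RPLP2 and RPL35. RPL37A (chr2:216498825-216579180), a zinc-binding protein, had 333, 362 and 355 CPM in the DOX– libraries and 319, 296 and 316 in the DOX+ libraries. The groups did not overlap, and its log2 fold change was −0.17 (SE 0.0412, edgeR adjusted p = 0.0684). RPL28 (chr19:55385932-55403250) had 346.5, 357 and 370.5 CPM against 325, 294 and 336, and its value was −0.17 (SE 0.0469, edgeR adjusted p = 0.115). RPL35 (chr9:124857880-124861981), at the rim of the exit tunnel, had 254, 261 and 274 CPM against 247, 221.5 and 239 (−0.16, SE 0.0449, edgeR adjusted p = 0.124). These 3 genes did not overlap between groups and did not pass edgeR's test in the reported setting. DESeq2 called all 3 (adjusted p = 0.000651, 0.00557 and 0.00964 in the same order). None of the 3 passed with the length trend removed, but only RPL35 moved much. It had −0.055 there (edgeR adjusted p = 0.546), against −0.165 for RPL37A (0.0773) and −0.185 for RPL28 (0.110). With the replicate number as a block besides, RPL28 passed (edgeR adjusted p = 0.0309).

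The stalk recruits the factors that drive elongation. RPLP0, its base, had 1507, 1512 and 1529 CPM in the DOX– libraries and 1466, 1373 and 1481 in the DOX+ libraries, without overlap, and a log2 fold change of −0.074 (SE 0.0290, edgeR adjusted p = 0.249). RPLP1, one of the acidic arm proteins, had 590.3, 629 and 638 CPM against 587, 565 and 576 (−0.10, SE 0.0342, edgeR adjusted p = 0.178). RPLP2, its partner, had 304, 343 and 339 CPM against 288, 287.5 and 307 (−0.16, SE 0.0468, edgeR adjusted p = 0.135). DOX– replicate 1 of RPLP2 lay below DOX+ replicate 3, so that gene overlapped between groups, whereas RPLP0 and RPLP1 did not.

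RPL19, the study's RT-qPCR reference gene, had 649, 644 and 658 CPM in the DOX– libraries and 614, 590.3 and 616 in the DOX+ libraries. The DOX+ values were lower without overlap, at 93.3% of the DOX– level, with a log2 fold change of −0.100 (SE 0.0293, edgeR adjusted p = 0.135). DESeq2 gave an adjusted p of 0.00802 for it, so the call depended on the tool. Its value was further from 0 than the members' median of −0.064. With the length trend removed, RPL19 had −0.024 (edgeR adjusted p = 0.7455).

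RPL5 and RPL11, which form the 5S particle that also binds MDM2, had log2 fold changes of −0.013 (SE 0.0286) and −0.053 (SE 0.0302). RPL5 overlapped between groups and RPL11, at 412, 420.1 and 422 CPM against 405, 399 and 405, did not. RPL3 had −0.033 and RPL7A −0.041. The paralogs RPL22L1, RPL26L1 and RPL39L had −0.074, −0.048 and −0.057, with overlapping groups for each. The 6 members above 0 were picked out after their values were seen. RPL9 had 336, 332 and 332 CPM in the DOX– libraries and 343, 355 and 336 in the DOX+ libraries, and its value was 0.048 (SE 0.0332, edgeR adjusted p = 0.528). DOX– replicate 1 and DOX+ replicate 3 were almost equal. RPL7L1 had 0.035, RPL7 0.021, RPL6 0.0096, RPL26 0.0050 and RPS3A 0.0030, and the libraries of these 5 overlapped. Of the 82 genes 22 lay within 1 standard error of 0, 33 lay more than 2 standard errors below it and 0 lay more than 2 above. No share over all features was computed for these limits, so the counts describe the members alone. At an unadjusted p under 0.05 with edgeR's test, 7.69% of all features were lower and 7.31% higher.

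Members have short messages, with a median annotated length of 827 bases, against 3376 over all features tested. Fold changes of other features with a known length went with length: their median was −0.099 for 144 features under 600 bases, −0.072 for 527 from there up to 1000 bases, −0.042 for 2262 from 1000 up to 2000, −0.0094 for 4607 from 2000 up to 4000, and 0.034 for 5149 of 4000 bases and over. Members of the same bins had −0.067 (22 genes), −0.061 (24), −0.053 (17), −0.067 (13) and −0.046 (6). Members of the 3 shorter bins lay near or above other features of their length in the first 2 and slightly below in the third, and the 19 members of 2000 bases or more lay below theirs; for several of those the annotated length is that of one long transcript, and the 6 over 4000 bases are too few to describe a trend. After the length trend of each library was removed through offsets, the medians were −0.0023 for the large and −0.011 for the small subunit, 43 members were lower and 39 higher, and 0 were called lower (background 0.65%), RPS16 included (−0.11, edgeR adjusted p = 0.105).

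**Figure D4:**
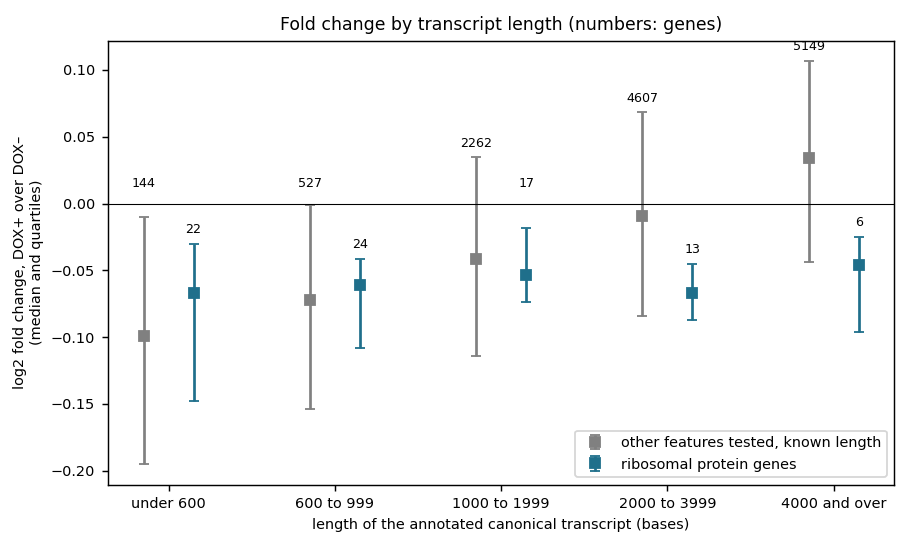
Log2 fold change, DOX+ over DOX–, by length of the annotated transcript, for ribosomal protein genes and all other features tested that have a known length, as median with quartiles and the number of genes above each. The median of other features runs from −0.099 under 600 bases to 0.034 at 4000 bases and over, while members stay between −0.067 and −0.046.

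For GC content, across the 82 genes Spearman's rho between log2 fold change and GC content was −0.39, and 0.13 with transcript length and 0.27 with the DOX– level, as descriptions over genes that share the same 6 libraries. In single libraries, rho between a member's deviation from its 6-library mean and GC content was 0.27, −0.059 and 0.47 in the DOX– libraries and −0.18, −0.54 and 0.15 in the DOX+ libraries. It had the same sign in other features except in DOX– replicate 2 (0.23, 0.028 and 0.75, then −0.29, −0.76 and 0.19, over 3847 features). DOX– replicate 3 and DOX+ replicate 2 were the 2 extremes. With the GC trend removed, 3 members were called lower: RPS16, RPS27 and RPL37A (edgeR adjusted p = 0.00450, 0.0211 and 0.0231; background 1.17%).

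**Figure D5:**
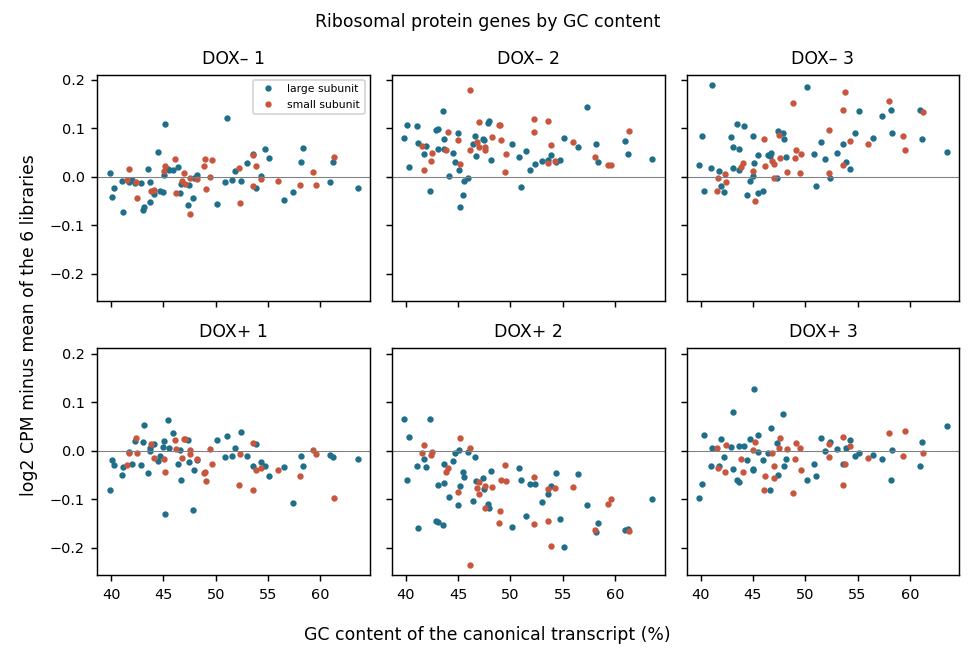
Log2 CPM of each ribosomal protein gene minus its mean over the 6 libraries, against the GC content of its transcript in percent, 1 panel per library, coloured by subunit. The points slope downwards in DOX+ replicate 2 (rho −0.54) and upwards in DOX– replicate 3 (rho 0.47), and show smaller slopes in the other panels.

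Members with a pyrimidine start did not stand apart from the others by much. The 47 genes had a median log2 fold change of −0.065, from −0.20 to 0.0050, and the 19 tested genes with another listed start −0.049, from −0.19 to 0.048. Low and high values occurred in both kinds. RPS16, RPS27 and RPL37A have such a start, and so do RPL26 and RPS3A, which were above 0. RPS29, RPS15 and RPS28, 3 of the 5 lowest small subunit genes, have none at a listed start, nor have RPL19, RPL9 and RPL7L1. A list of messages outside the symbol rule that are known for a TOP start was read beside them. Of these 25 genes, among them EEF1A1, an elongation factor, with a value of −0.0078, and TPT1, with 0.049, 16 were lower and 9 higher, 0 passed the test in either direction, and the median was −0.018. It was 0.0032 when libraries were scaled by total counts alone, so its sign was not stable. As background, 50.7% of all features had a value under 0, 0.715% were called lower and 0.4% higher. FAU, which had the smallest p-value, and RACK1 are members of this list and are described next. EEF1D, a subunit of the elongation factor complex, had −0.14 (edgeR adjusted p = 0.132).

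Relatives outside the rule had negative values too, and none passed edgeR's test in the reported setting. FAU, which makes a fusion protein that yields a small subunit protein, had a log2 fold change of −0.20 (SE 0.0482, edgeR adjusted p = 0.0668), RACK1, a scaffold on the small subunit, −0.066, and RPL36AL −0.072. FAU had 142, 149.9 and 148 CPM in the DOX– libraries and 129.5, 118.5 and 134 in the DOX+ libraries, without overlap. It passed with DESeq2 (adjusted p = 0.00174) and with the GC trend removed (edgeR adjusted p = 0.0388). With the length trend removed it did not pass (−0.11, edgeR adjusted p = 0.240). Of the 13 snoRNA host genes with TOP starts, 1 was in the table (C6orf48, −0.044).

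Reads can be shared with readthrough transcripts that join a member to its neighbour. RPS10-NUDT3 had 237, 236 and 160 counts in the DOX– libraries and 102, 55 and 50 in the DOX+ libraries and passed the test (log2 fold change −1.66, SE 0.253, edgeR adjusted p = 0.00557), whereas RPS10 had −0.022. The readthrough held 0.297% to 1.54% of the pair's counts, and the sum of both was 464 ± 7.86 CPM in DOX– and 453 ± 18.6 CPM in DOX+ libraries (n = 3 each, exact two-sided permutation p = 0.5). RPL17-C18orf32 had 0, 820 and 50 counts against 560, 443 and 0, a spread within groups that covers the difference between them, and RPL17 had −0.049. RPL36A-HNRNPH2 took 15.4% to 22.3% of its pair, and RPL36A had −0.13 (SE 0.0633, edgeR adjusted p = 0.369). The division of reads between these overlapping genes is therefore uncertain. Another 9 unannotated loci that resemble a member held at most 0.0482% of the members' counts.

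The pathways that build and regulate ribosomes were read from fixed lists. As background, 50.7% of all 13991 features tested had a value under 0, 0.715% were called lower and 0.4% higher. Of 75 ribosome assembly factors tested, 42 were lower and 33 higher, 2 were called lower and 0 higher, with a median of −0.018 (0.0021 with scaling by total counts). The 2 were NOP53, a factor of large subunit assembly (−0.20, SE 0.0426, edgeR adjusted p = 0.0450), and IMP3, of the U3 particle of small subunit processing (−0.30, SE 0.0581, edgeR adjusted p = 0.0269). NOP53 lost its call when any 1 library was left out (edgeR adjusted p = 0.0596 to 0.180) and with the length or GC trend removed (edgeR adjusted p = 0.110 and 0.128). IMP3 kept its call without DOX+ replicate 2 and lost it without each of the other 5 libraries (edgeR adjusted p = 0.0221 to 0.128) and with either trend removed (edgeR adjusted p = 0.0856 and 0.0601). IMP3 had 39.1, 42.7 and 39.1 CPM in the DOX– libraries and 32.8, 34.4 and 31.2 in the DOX+ libraries. For 20 genes of RNA polymerase I and its factors, 9 were lower and 11 higher, 0 were called, and POLR2L (−0.16, edgeR adjusted p = 0.183) and POLR2E (−0.15, edgeR adjusted p = 0.175), subunits shared between polymerases, had the smallest p-values. Of 20 regulators of TOP messages and growth, 12 were lower and 8 higher, 2 were called lower and 0 higher. DDIT4, an inhibitor of mTORC1, had 29.5, 32.3 and 36.3 CPM in the DOX– libraries and 21.1, 22.9 and 22.4 in the DOX+ libraries (−0.56, SE 0.0763, edgeR adjusted p = 0.00259). EIF4EBP1, which blocks cap-dependent initiation until mTORC1 phosphorylates it, had 61.8, 59.4 and 65.7 CPM against 48.9, 47.9 and 45.6 (−0.39, SE 0.0509, edgeR adjusted p = 0.00196). Both fell without overlap between groups. EIF4EBP2, a relative of EIF4EBP1, had 66.8, 67.8 and 67.3 CPM in the DOX– libraries and 76.4, 74.8 and 75.7 in the DOX+ libraries, higher without overlap, with a log2 fold change of 0.17 (SE 0.0395, edgeR adjusted p = 0.0660). It passed with DESeq2 (adjusted p = 0.0139) and with the GC trend removed (edgeR adjusted p = 0.0331). MTOR (−0.022), LARP1 (−0.029) and MYC (0.010), a regulator of ribosome production, were in the same list, did not pass the test and overlapped between groups.

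Of the fibroblast markers, 5 of 10 were called lower and 0 higher (background 0.715% lower and 0.4% higher). COL1A1 (−0.69), COL1A2 (−0.50) and COL3A1 (−0.50) were among the 5. The 10 markers summed to 56160 to 57750 CPM in the DOX– and 47470 to 49070 CPM in the DOX+ libraries. TMM factors ranged from 0.988 to 1.01. With libraries scaled by total counts alone, the medians were −0.042 for the large and −0.044 for the small subunit. With TMM they were −0.062 and −0.065. The part of the collagen fall in the ribosomal protein values was not tested.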

How the data were processed

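RNA of 3 DOX– and 3 DOX+ libraries of IMR-90 fibroblasts was poly(A)-selected and sequenced in pairs of 150-base reads. The authors aligned the reads with HISAT2 to GRCh38 and assembled and quantified them with StringTie (versions not given in the sources used here), and deposited whole-number counts without normalization, which every test here used, and FPKM, which served only to compare levels between genes. Stray lines that name no gene (17) were dropped. Groups came from the sample titles. Members and gene lists were chosen with earlier results of these data known.

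Counts were filtered with edgeR 4.0.16 (filterByExpr, minimum count 10), scaled by TMM and tested by its quasi-likelihood test in R 4.3.3 over 13991 features, with Benjamini-Hochberg adjustment; a gene's standard error is its log2 fold change, without sign, over the root of its F statistic. CPM use TMM-scaled library sizes. Alternatives used DESeq2 1.42.0, limma 3.58.1 (voom), other filters and scalings, lowess trends (span 0.3) on length or GC content of the GENCODE 44 canonical transcript, each library left out, and the replicate number as a block. The scripts were tested on simulated data. Named are called members, RPL19, the 4 members per subunit with the largest change among those of at least 1000 mean counts, the 3 highest and lowest per subunit by FPKM, paralogs, stalk genes, RPSA, members with a readthrough gene, and the 2 smallest p-values per further list. RPL5, RPL6, RPL7, RPL9, RPL11, RPL26, RPS3A, RPS6, RPS27A, EEF1A1, EEF1D, TPT1, EIF4EBP2, RPL37, COL1A1, COL1A2, COL3A1, MTOR, LARP1 and MYC were added after their values were seen. Some genes, which the fits and counts include, are not reported by name. With at least 34057675 counts per library, counting error is small for these genes. Replicates with the same number did not deviate together (correlations −0.024, −0.035 and 0.036).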

Additional observations from a re-analysis of the deposited data

How the results depend on the processing

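Counts of calls moved most; directions of the medians did not, except as stated. Ribosomal protein genes called lower numbered 1 in the reported setting, 4 without a low-count filter, 16 with DESeq2, 3 with the GC trend removed, 0 with the length trend removed, 0 with the trend on the length implied by counts and FPKM removed (chosen after seeing the data), 28 at an unadjusted p under 0.05, 0 with the study's added fold criterion, and 0 to 2 when a library was left out; 0 were called higher in any of these. All features called higher and lower numbered 56 and 100, and 127 and 163 without the filter, 88 higher by library size, 243 and 244 with DESeq2, 127 and 163 with the GC trend removed, 1023 and 1076 at an unadjusted p, 2 and 4 with the fold criterion, and 20 to 69 and 54 to 92 with a library left out. The medians of the large and small subunit were −0.0023 and −0.011 with the length trend removed, −0.00128 and 0.0030 with the implied lengths, and −0.083 to −0.043 and −0.086 to −0.040 with a library left out. The ratio of the subunits was 0.0096 by mean log2 CPM per gene and −0.0064 to 0.0029 with a library left out, and the share of counts fell by 0.0569 to 0.139 percentage points.

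The replicate numbers do not pair the libraries. As a replicate block they gave 135 features higher, 157 lower and 3 members lower (RPL13, RPS15 and RPS16). With the length trend removed as well these numbers were 157, 185 and 3, with medians of −0.0023 and −0.011. The 3 members were then RPL13, RPL28 and RPS16 (edgeR adjusted p = 0.0373, 0.0309 and 0.0420). The following single values changed sign; the cause was not tested. With the length trend removed, and with the replicate block added to it, they were 0.015 and 0.015 for C6orf48, 0.0069 and 0.0069 for RPL11, 0.038 and 0.038 for RPL17, 0.028 and 0.027 for RPL26L1, 0.016 and 0.015 for RPL3, 0.0097 and 0.0087 for RPL36AL, 0.019 and 0.020 for RPL39L, 0.047 and 0.047 for RPL5, 0.025 and 0.025 for RPL7A, 0.066 and 0.066 for RPS10, 0.061 and 0.061 for RPS18, 0.021 and 0.021 for RPS2, 0.053 and 0.054 for RPS27A, 0.028 and 0.027 for RPS6, and 0.042 and 0.042 for RPSA. With the GC trend removed they were −0.011 for RPL26, 0.0013 for RPL3, −0.031 for RPL7, 0.0077 for RPS10, 0.016 for RPS2, −0.031 for RPS3A, 0.0035 for LARP1 and 0.0015 for MTOR. By library size they were 0.0080 for RPL5, 0.00083 for RPS27A, 0.0013 for RPS27L, 0.0022 for RPS6, 0.0080 for RPSA and 0.013 for EEF1A1. With a library left out the ranges were −0.41 to 3.69 for RPL17-C18orf32, −0.0082 to 0.023 for RPL26, −0.017 to 0.029 for RPS3A, −0.066 to 0.0081 for RPS18, −0.038 to 0.0083 for RPS27A, −0.0059 to 0.022 for RPL6, −0.13 to 0.0047 for RPL26L1, −0.042 to 0.012 for RPS10, −0.025 to 0.0044 for RPL5, −0.017 to 0.00072 for EEF1A1, −0.046 to 0.0069 for MTOR and −0.026 to 0.044 for MYC.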
